A study of Mus musculus with 8 samples.

Results

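The Zic, Msx and Gsx genes encode transcription factors of the dorsal and intermediate neural tube, and they were followed here in embryoid bodies, floating clusters of differentiating mouse embryonic stem cells. The members were taken as every probe set (a group of short probes read as 1 value) whose platform annotation names Zic1, Zic2, Zic4, Zic5, Msx1, Msx2, Msx3, Gsx1 or Gsx2 alone. This gave 15 of the 45101 probe sets on the array, for 9 of 18193 genes named in this way. The labels describe the cells as the stem cell line YFP3.1 with a constitutively expressed FLAG-tagged Gli1, a factor that transmits Hedgehog (Hh) signals to genes, and both groups received 500 nM retinoic acid after 2 days in suspension. The array's Gli1 probe set 1449058_at read 19.2 ± 1.24 with retinoic acid alone and 21.2 ± 3.72 with the agonist (SD, n = 4 per group), near the level below which probe sets were not tested, and whether its probes lie within the tagged copy was not tested. The first group of 4 samples had retinoic acid alone, and the second group of 4 also had 1 uM of the Hh agonist HH-Ag. They give the line, the tagged Gli1 and a collection at 3 days of differentiation for 7 samples, while replicate 7 of the agonist group, placed by its title, carries none of these. They do not say how the cultures were kept apart, so the p-values rest on the variation among these 8 samples, which may be technical. Since tissue-like aggregates were measured whole, fewer cells of a type and less RNA per cell cannot be told apart.

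In the embryo, BMP and Wnt signals from the roof plate act on the dorsal neural tube and Sonic hedgehog from the floor plate acts on the ventral side. The Msx genes are homeobox genes and well-known BMP targets, with Msx1 and Msx2 in the dorsal midline and Msx3 in the dorsal neural tube more broadly. The Zic genes encode zinc finger factors related to the Gli proteins and mark the dorsal neural tube and early neural plate. Gsx1 and Gsx2, formerly Gsh1 and Gsh2, are homeobox genes of dorsal interneuron progenitors in the spinal cord and of the ventral forebrain. Zic1 and Zic4 lie next to each other on chromosome 9, and Zic2 and Zic5 on chromosome 14, with 0 protein-coding genes between the genes of a pair in the RefSeq table.

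The promoters of Msx2 and Msx1 are shown because Msx2 had the largest difference between the groups among the members tested, and its relative Msx1 is set beside it; neither gene passed the test. Each runs from 250 bases before the gene's start to 50 after it, 5′ to 3′ on the minus strand (RefSeq, GRCm38.p6, chr13:53472731-53473030 for Msx2 and chr5:37824536-37824835 for Msx1), and capitals mark the motifs found.
Msx2: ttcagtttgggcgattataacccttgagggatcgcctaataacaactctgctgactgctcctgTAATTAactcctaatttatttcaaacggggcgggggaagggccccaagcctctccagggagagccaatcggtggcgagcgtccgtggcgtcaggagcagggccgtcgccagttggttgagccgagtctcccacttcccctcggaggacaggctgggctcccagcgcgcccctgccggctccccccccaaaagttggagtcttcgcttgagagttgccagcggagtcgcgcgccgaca
Msx1: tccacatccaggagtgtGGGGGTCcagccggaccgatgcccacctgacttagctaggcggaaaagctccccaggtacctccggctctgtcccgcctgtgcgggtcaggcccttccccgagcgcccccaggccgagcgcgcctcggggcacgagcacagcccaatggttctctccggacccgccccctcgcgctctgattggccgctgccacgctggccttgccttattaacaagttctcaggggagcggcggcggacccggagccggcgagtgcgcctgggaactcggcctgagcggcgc
The letters searched on both strands were GACCACCCA, a Gli site, GGGGGTC, a site of the Zic type, and TAATTG and TAATTA, homeodomain sites, of which the last pair share their first 5 letters. Msx2 held TAATTA, which 5.29% of 32851 promoters of this length hold, starting 187 bases before its start. Msx1 held GGGGGTC, which 3.79% hold, starting 233 bases before its start. GACCACCCA, held by 0.253%, and TAATTG, held by 8.00%, were in neither window, and none of the 4 motifs was found in the promoters of the 6 other members in the table. A match describes letters and is not a measured binding site.

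None of the members passed the comparison between the groups. The test was limma over 27022 probe sets, on log2(intensity + 16), with an adjusted p under 0.05 as the threshold. It took only probe sets with a mean over the 8 arrays above the 40th percentile, which is near an intensity of 15.1. Of the 15 member probe sets 7 were above that level, those of all Msx and Gsx genes, and all 8 Zic probe sets were below it. Of the 7 tested 0 were called, against 1.87% of all tested probe sets, and 2 had an unadjusted limma p under 0.05, against 12.2% of all tested, Msx2 lower and Msx3 higher with the agonist. The groups did not overlap for 1 of the 7, against 7.06% of all tested, and for 2 of the 15, against 5.60% of all probe sets without controls. Of the 7 tested 3 were lower and 4 higher, with a median log2 difference of 0.035 against -0.0047 over all tested probe sets.

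**Figure D1:**
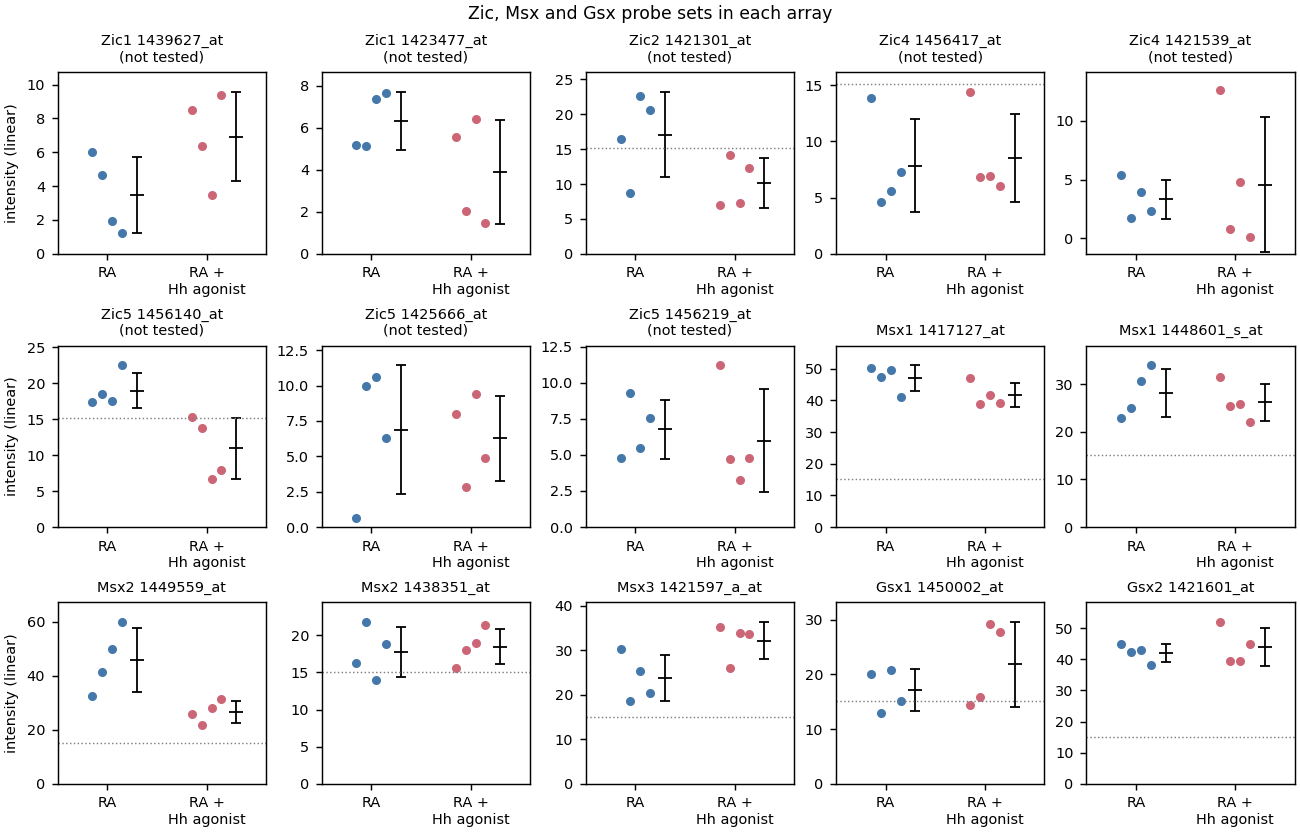
Linear intensity (y axis) of the 15 member probe sets in each array, for retinoic acid alone (RA, blue) and with the Hh agonist (red), with the mean and SD of 4 arrays in black and a dotted line at the filter level of 15.1 where it falls within the panel. Msx2 1449559_at and Zic5 1456140_at are the 2 panels in which the groups do not overlap, and all but Zic2 and Zic5 1456140_at among the Zic panels lie wholly below that level.

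Msx2 is read by a pair of probe sets, which gave different pictures. In the brighter one, 1449559_at, the 4 retinoic acid arrays read 32.4, 41.4, 49.8 and 59.96, and the 4 agonist arrays read 25.7, 21.6, 28.0 and 31.3. All agonist arrays lay below all retinoic acid arrays, the nearest values being 31.3 and 32.4. The means were 45.9 ± 11.8 and 26.6 ± 4.08 (SD, n = 4 per group), a log2 difference of -0.52 (SE 0.14, 95% interval -0.81 to -0.24, limma adjusted p = 0.0588). It therefore missed the threshold. The other probe set, 1438351_at, read 16.2, 21.8, 14.0 and 18.9 with retinoic acid alone and 15.6, 18.0, 19.0 and 21.4 with the agonist. Its groups overlapped throughout, at a log2 difference of 0.035 (95% interval -0.25 to 0.32, limma adjusted p = 0.953). The means of 1438351_at, 17.7 ± 3.37 and 18.5 ± 2.41 (SD, n = 4 per group), lay near the filter level of 15.1. Its level values therefore cannot show whether Msx2 fell.

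The side of the threshold on which Msx2 1449559_at falls depended on the setting. With the hybridisation day as a block the adjusted p was 0.0401. On the second day alone, with 3 arrays a group, the log2 difference was -0.63 (adjusted p = 0.0441), and the first day holds 1 array a group, with a difference of -0.22. Without retinoic acid replicate 1, the lowest of its group, the difference was -0.63 (adjusted p = 0.0183), and without replicate 4, the highest, it was -0.42 (adjusted p = 0.190). In all, 5 of 18 other settings called it, and in all 18 it was lower with the agonist. On the second day each group ran on its own fluidics station, so station and group cannot be told apart within that day.

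**Figure D2:**
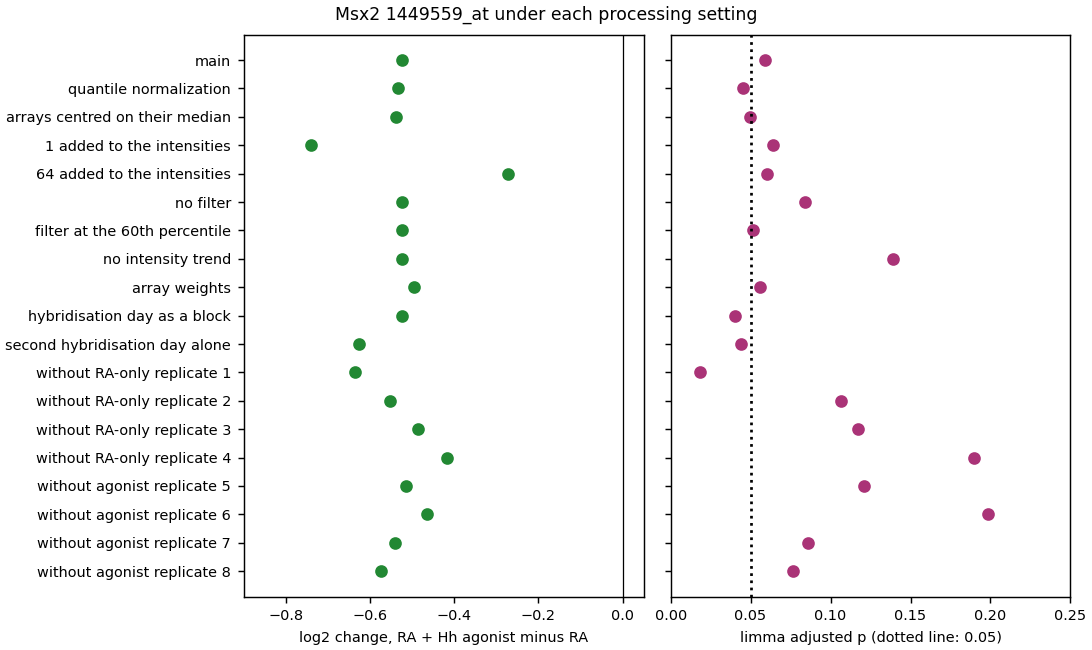
Log2 difference between the agonist group and retinoic acid alone (left) and limma adjusted p (right) of Msx2 1449559_at under the main setting and 18 others (rows), each point being 1 fit. All differences lie below 0, from -0.74 to -0.27, while the adjusted p lies on both sides of the dotted threshold of 0.05.

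Msx1 was above the filter in both of its probe sets, and neither set the groups apart. The brighter, 1417127_at, read 50.1, 47.5, 49.5 and 41.1 with retinoic acid alone and 47.1, 38.8, 41.8 and 39.1 with the agonist. Only agonist replicates 6 and 8 lay below every retinoic acid array. The log2 difference was -0.13 (95% interval -0.34 to 0.087, limma adjusted p = 0.681). The other, 1448601_s_at, whose suffix marks probes that can match more than a single gene's transcripts, had 28.1 ± 5.10 against 26.2 ± 3.92 (SD, n = 4 per group), a log2 difference of -0.062 (95% interval -0.32 to 0.20).

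Msx3, read by 1 probe set, had higher values in most agonist arrays. The retinoic acid arrays read 30.2, 18.7, 25.4 and 20.5, and the agonist arrays read 35.2, 25.9, 33.8 and 33.6. Agonist replicate 6 lay below retinoic acid replicate 1, and the other agonist arrays lay above all of that group. The log2 difference was 0.28 (SE 0.13, 95% interval 0.017 to 0.55), and it did not pass (limma adjusted p = 0.369, and adjusted p = 0.260 to 0.639 over the other settings). The sign was positive in all 18 other settings.

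Gsx2 was among the brighter members and nearly level. It read 44.9, 42.5, 42.9 and 38.1 with retinoic acid alone and 52.1, 39.5, 39.4 and 45.1 with the agonist, where replicate 5 was highest. The log2 difference was 0.043 (95% interval -0.18 to 0.26, limma adjusted p = 0.922). Gsx1 read 20.04, 12.9, 20.8 and 15.2 against 14.5, 15.9, 29.3 and 27.8. In the agonist group replicates 7 and 8 lay above every retinoic acid array, and replicates 5 and 6 lay within their range. The log2 difference of 0.17 had a 95% interval of -0.16 to 0.50 (limma adjusted p = 0.723).

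The Zic genes were too dim to test. Zic1, Zic4 and Zic5 share 7 probe sets with values down to 0.0558, and 0 of the members' values were listed at 0. Zic2 read 16.4, 8.74, 22.6 and 20.6 with retinoic acid alone and 6.99, 14.1, 7.32 and 12.2 with the agonist. All agonist arrays were below retinoic acid replicates 1, 3 and 4, while replicate 2 lay among them. Zic5 1456140_at read 17.4, 18.5, 17.5 and 22.5 against 15.2, 13.8, 6.69 and 7.96, with no overlap. When all probe sets were tested without the filter, neither passed, at log2 differences of -0.33 for Zic2 (adjusted p = 0.533) and -0.39 for Zic5 1456140_at (95% interval -0.69 to -0.083, adjusted p = 0.338). These sizes depend on the added constant: with 1 in place of 16 the differences were -0.68 and -0.81, and with 64 they were -0.13 and -0.15.

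The other Zic probe sets showed no common direction. The other Zic5 probe sets had 6.88 ± 4.56 against 6.27 ± 3.00 for 1425666_at and 6.79 ± 2.05 against 6.00 ± 3.56 for 1456219_at (SD, n = 4 per group). Zic1 had 3.45 ± 2.25 against 6.93 ± 2.64 in 1439627_at and 6.34 ± 1.38 against 3.88 ± 2.48 in 1423477_at, opposite differences in the same arrays. Zic4 had 7.84 ± 4.17 against 8.54 ± 3.93 in 1456417_at and 3.32 ± 1.67 against 4.56 ± 5.77 in 1421539_at. Without the filter none of the 8 Zic probe sets passed, with SEs of 0.14 to 0.17 on the log2 scale against a median of 0.13 for the tested members. The Hh-induced homeobox gene Nkx2-9 rose from such dimness, from 2.28 ± 0.815 to 148 ± 22.9 (SD, n = 4 per group, limma adjusted p = 8.14e-12). It passed the filter only through its agonist arrays, and it does not show whether a small rise or a fall from such dimness could be read.

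Whether probe sets of a gene changed unequally was asked within arrays, by the log2 difference between them, for 7 pairs in 5 genes. For Msx2 1449559_at exceeded 1438351_at by 0.86 on the log2 scale with retinoic acid alone and by 0.30 with the agonist, a shift of -0.56. Its exact two-sided permutation p was 0.0286, the smallest that 4 arrays against 4 allow, and the adjusted p over the 7 pairs was 0.200. The dimmer 1438351_at lay near the filter level, which limits what this pair can show. The other 6 pairs had exact permutation p-values from 0.0571 to 0.886. With 7 pairs and this smallest p, a single pair cannot pass after adjustment, though several together could.

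**Figure D3:**
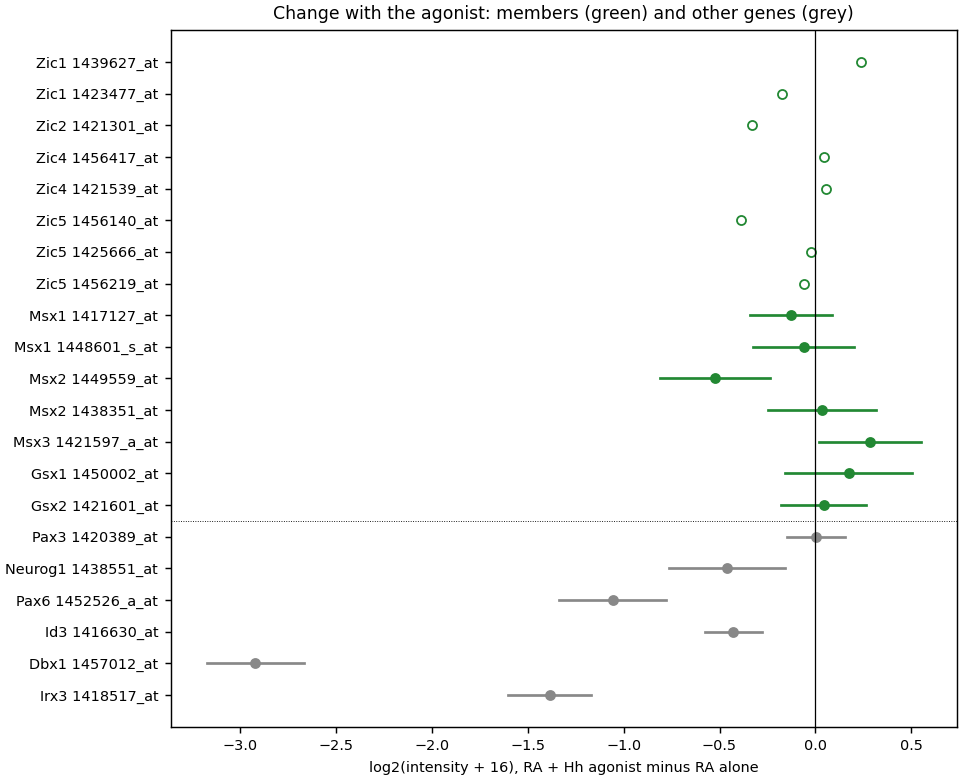
Log2 difference between the agonist group and retinoic acid alone, on log2(intensity + 16), for the 15 member probe sets (green) and 6 other genes (grey), with 95% intervals from limma where tested and open circles for untested members. The tested members lie between -0.52 and 0.28, while Dbx1 and Irx3 lie at -2.92 and -1.39. Dbx1 and Irx3 were brighter with retinoic acid alone, and with 16 added a dimmer probe set has less room to fall.

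A pair of intermediate progenitor genes that changed in these arrays gives a scale. Dbx1, a homeobox gene in the middle of the dorsoventral axis, fell by 2.92 on the log2 scale and Irx3, a homeobox gene of intermediate and dorsal progenitors, by 1.39 (limma adjusted p = 3.53e-11 and 1.07e-07). The lower end of the 95% interval was -0.34 for Msx1 1417127_at, -0.18 for Gsx2 and -0.81 for Msx2 1449559_at, so none of these 3 intervals reached the change of Irx3. Dbx1 and Irx3 with retinoic acid alone were brighter than these 3 probe sets, at 169 ± 16.7 and 114 ± 15.8 (SD, n = 4). With 16 added, the same fold change reads smaller in a dimmer probe set, and even a complete loss is limited by brightness. The distance of the members from Dbx1 and Irx3, which were picked as genes that fell, is therefore partly set by brightness. Of the other dorsal progenitor and proneural factors, 9 of 11 had a probe set in use and 4 were tested, with 0 called in either direction in limma and 2, Gbx2 and Neurog1, at an unadjusted p under 0.05 in a probe set. Their 5 tested probe sets had a median log2 difference of 0.0014. Over all genes tested 2.61% had a called probe set and 17.5% a probe set at an unadjusted p under 0.05. Pax3, a paired-box gene of dorsal progenitors, had a log2 difference of 0.0014 (95% interval -0.15 to 0.15) in its brighter tested probe set, 1420389_at, and of -0.21 (95% interval -0.49 to 0.078) in the dimmer, 1430335_a_at. Neurog1, a proneural gene of dorsal interneuron progenitors, had 22.3 ± 3.32 against 11.9 ± 3.76 without overlap (limma adjusted p = 0.141). Gbx2, a homeobox gene, stood the other way, at 55.2 ± 3.29 against 69.3 ± 2.96, also without overlap (log2 difference 0.26, 95% interval 0.071 to 0.45, limma adjusted p = 0.204). Pax7, a relative of Pax3, was below the filter, as were Olig3, Ptf1a, Lbx1 and Dbx2. Its probe set 1444596_at had 14.2 ± 3.47 against 3.7 ± 2.7 (SD, n = 4 per group), without overlap, at a log2 difference of -0.61. The other Pax7 probe set, 1452510_at, had 13.7 ± 3.83 against 12.1 ± 3.56, with overlap, and neither was tested.

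The genes for signals that act on Msx genes, and for responses to them, were read as lists. Of 18 roof plate and dorsal signal genes 10 were tested and 0 called in limma, 0 also at an unadjusted p under 0.05, with a median log2 difference of 0.084. Bmp4 had 19.6 ± 6.31 against 22.3 ± 8.28 (SD, n = 4 per group), and Bmp7 had 61.5 ± 6.67 against 64.7 ± 8.33 in its brightest probe set. Of 14 BMP response and feedback genes 12 were tested, and 2 fell, none rose and 10 did not pass. Those that fell were Id2 and Id3, inhibitors of bHLH factors that BMP signals induce. Id3 went from 306 ± 26.5 to 223 ± 5.76, falling by 0.43 on the log2 scale (SE 0.071, limma adjusted p = 0.00194), and Id2 1435176_a_at fell by 0.57 (limma adjusted p = 0.00464), while a brighter Id2 probe set had a difference of -0.42 (limma adjusted p = 0.0603). Both genes were called in all 18 other settings. The median over the 21 tested probe sets of the list was -0.13. At an unadjusted limma p under 0.05 there were 4 of the 12 genes, Id2, Id3, Id4 and Smad6, against 17.5% of all genes tested. The probe sets concerned were all lower with the agonist. Of 10 tested Wnt response genes 0 passed and 1, Sp5, had an unadjusted limma p under 0.05, with a median of -0.044. In the Hedgehog response list 5 of 12 tested genes rose and 2 fell. The risers were Ptch1, Foxa2, Nkx2-9, Nkx6-1 and Olig2, and the others Gli3 and Gas1, by a dimmer probe set each. Gas1 was not called without retinoic acid replicate 2 or on the second day alone, and with the filter at the 60th percentile the called probe sets of Gas1 and Gli3 were too dim to be tested.

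**Figure D4:**
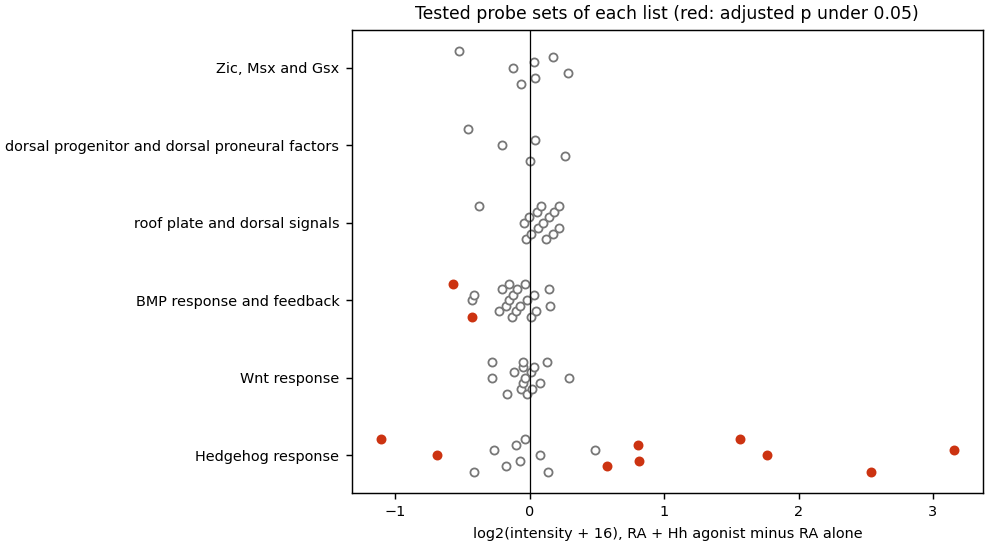
Log2 difference between the agonist group and retinoic acid alone (x axis) for each tested probe set (circles) of the members and of 5 lists (rows), with called probe sets in red. The members and the dorsal lists hold no red circle, the BMP response list holds Id2 and Id3 on the left, and the Hedgehog response list reaches 3.16 on the right.

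Markers of other cell types that can express these genes were read in the same arrays. In the list of surface ectoderm and epithelium, 8 of 8 genes were tested, and the keratin genes Krt8 and Krt18 fell while the other 6 did not pass. The summed intensity of that list lay between 2004 and 2255 with retinoic acid alone and between 1617 and 1891 with the agonist, without overlap, as for Msx2 1449559_at. Krt18 fell by 0.38 and the brightest Krt8 probe set by 0.40 on the log2 scale (limma adjusted p = 0.00182 and 0.0141), and both calls were lost without an intensity trend. Krt8 was also lost on the second day alone. These 2 genes carried the sum, at 1350 to 1539 against 950.3 to 1182, while the rest of the list overlapped, at 654 to 757 against 641 to 709. At an unadjusted limma p under 0.05 there were 5 of the 8 genes, against 17.5% of all genes tested. They were the 2 keratins, Cdh1, Epcam and Dlx3, each lower in the probe sets concerned, and the list median was -0.24. Cdh1 had 111 ± 18.5 against 76.15 ± 18.4 and the dimmer Epcam probe set 76.1 ± 19.1 against 50.7 ± 6.05 (SD, n = 4 per group). Several other probe sets stood slightly higher with the agonist and did not pass. Krt5 was at 134 ± 19.2 against 152 ± 13.2 and the brightest Epcam probe set at 131 ± 8.77 against 141 ± 5.33. The brighter Dlx3 probe set, 1422037_at, was level at 88.9 ± 7.84 against 89.4 ± 7.51, as was the brightest of Trp63, at 35.1 ± 3.69 against 35.5 ± 3.91. The summed intensity of the BMP response list was also lower with the agonist, at 1404 to 1525 against 1202 to 1278. The part of either in the Msx2 values was not tested.

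In 5 other marker lists no gene was called in limma, and at an unadjusted p under 0.05 there were 3 pluripotency genes, 1 neural crest and 1 endoderm gene, and 0 mesoderm or forebrain and midbrain genes, against the 17.5% of all genes tested. Neural crest markers had 0 of 5 tested genes called and a summed intensity of 547.5 to 581.2 against 581.4 to 661.3, just without overlap, with Foxd3, Sox9 and Ets1 below the filter. Mesoderm and somite markers had 0 of 6 called, at 271 to 322 against 286 to 333, with Foxc2 and Twist1 below the filter. Forebrain and midbrain markers, which bear on Gsx genes, had 0 of 3 called, at 236 to 308 against 228 to 265, with 7 genes below the filter, Dlx2 and Otx2 among them. Pluripotency markers had 0 of 8 called, at 5064 to 5847 against 5193 to 5509, and endoderm markers 0 of 4, at 213 to 252 against 214 to 255. The 3 pluripotency genes at an unadjusted limma p under 0.05 were Nanog, Tdgf1 and Utf1, each lower in the probe set concerned. Most of the pluripotency sum came from Dppa5a, at 3962 ± 167 against 3944 ± 45.7 (SD, n = 4 per group). The neural crest gene was Ednrb, higher with the agonist, and the endoderm gene Sox17, lower. Of the neural progenitor markers Sox2 stood at 340 ± 44.9 against 285 ± 26.9 and the brightest Nes probe set at 262 ± 26.7 against 268 ± 5.09, while Sox1 was below the filter. Of 7 tested neural progenitor genes Fabp7 rose and Pax6 fell, Pax6 in 3 probe sets that were too dim to be tested with the filter at the 60th percentile. All 7 neuron markers had a probe set called higher, and the list summed to 930 to 1016 against 2521 to 2836. Dcx was lost in 6 of the other settings and Elavl3 in 11. Their probe sets also differed: the brightest of Dcx, 1418140_at, was level at 68.8 ± 3.74 against 67.9 ± 1.81 (SD, n = 4 per group). Elavl3 1435871_at did not pass (limma adjusted p = 0.207).

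As a description of likeness, each member with a tested probe set was compared with 22294 or 22295 probe sets of other genes by Pearson's r over the 8 arrays, which share groups and hybridisation days. With this many candidates and 8 points, high values are to be found for any probe set. Closest to Msx2 1449559_at were Ndc80 (r = 0.977), Tyw3 (0.972) and Hoxc5 (0.967). Closest to Msx1 1417127_at were Nop10 (r = 0.979), Phf19 (0.969) and Plod2 (0.965). Closest to Msx3 were 4930542N06Rik (r = 0.977), Nat9 (0.976) and Pde1c (0.964). Closest to Gsx1 were Ezh1 (r = 0.963), Lrp12 (0.963) and BC052688 (0.956), and closest to Gsx2 were Acot6 (0.991), 4933401D09Rik (0.986) and Rnf181 (0.957). None of these 15 probe sets passed the comparison between the groups.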

How the data were processed

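Total RNA was extracted with Trizol, per the labels, and hybridised to 1-colour Affymetrix Mouse430_2 arrays, 1 per sample. The deposited values are linear intensities, 1 for each probe set of an array. The authors' probe summary, background correction and normalization are not given in the sources used here. Array medians lay between 21.6 and 22.6, and the authors' scaling was kept. Per the file headers, replicates 1 and 5 were hybridised on a first day and the other 6 on a second. Agonist replicates 6, 7 and 8 ran on their own fluidics station and all other arrays on another. Station and group can therefore hardly be told apart in any comparison here, and the day as a block does not remove this. Pearson's r between arrays, taken across probe sets, was 0.972 to 0.979 inside a group and 0.965 to 0.977 from group to group, so no array repeats another. No detection calls were used. Precision is limited by the number of arrays.

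Of 45101 probe sets 64 were controls and 34945 named 1 gene. Another 932 named several genes and 9160 were not listed, and these were not used for genes. By gene ID 34741 matched RefSeq, with 0 symbols changed. Groups, taken from the titles, were compared with limma 3.58.1 in R 4.3.3 (lmFit, eBayes with an intensity trend, two-sided, Benjamini-Hochberg over 27022 tested probe sets) on log2(intensity + 16). Adjusted p-values are from this fit unless an exact permutation test is named. Lists are described by counts and medians, and a list gene counts as called if any of its probe sets is. Tested on simulated data, in which 200 of 27022 probe sets were altered, the model recovered 46% of changes of 0.5 and 94% of changes of 1 on the log2 scale. These were all rises in randomly drawn probe sets with independent normal noise. The median SE was 0.13 for the tested members against 0.12 for all tested probe sets, so the rates need not hold for the members. Tables used Python 3.11.15, pandas 2.3.3, numpy 2.4.6 and scipy 1.17.1, and plots matplotlib 3.10.9. Members, lists and tests were chosen with earlier results of these data known. Named are all member probe sets, called list genes, list genes that show what did not pass, Dbx1 and Irx3 for scale, and the 3 most alike probe sets per tested member gene. The alternatives were quantile normalization, centring on array medians, adding 1 or 64, no filter or the 60th percentile, no trend, array weights, the day as a block and leaving out each array. The second day alone was added after seeing the data.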

Additional observations from a re-analysis of the deposited data

Results flagged for a closer look

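Among 30 groups of 4 arrays (15 member probe sets in both conditions), 2 held an array far from the other 3 by Dixon's test at the 95% level, which sets the gap to the nearest array against the group's whole range on the log2 scale. Chance alone flags about 1 in 20 groups. For Zic4 1456417_at, agonist replicate 5 read 14.4 against 6.04 to 6.90 in the other agonist arrays, a gap of 0.881 of the range. Retinoic acid replicate 1, which shares its hybridisation day and chip lot, read 13.9 against 4.64 to 7.29 in the other arrays of its group. The log2 difference between the groups was 0.044 with all arrays, -0.063 without agonist replicate 5, 0.16 without retinoic acid replicate 1 and 0.051 on the second day alone, and the probe set was below the filter. For Msx3, agonist replicate 6 read 25.9 against 33.6 to 35.2 in the others, a gap of 0.840 of the range. Without it the log2 difference went from 0.28 to 0.35 and still did not pass (limma adjusted p = 0.365).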

How the results depend on the processing

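Over the 27022 tested probe sets the 506 calls became 264 without an intensity trend and 263 on the second day alone, and 298 to 616 when each array was left out (323 without retinoic acid replicate 2, 298 without agonist replicate 6). The 0 member probe sets called became 1, Msx2 1449559_at each time, with quantile normalization, with arrays centred on their median, with the hybridisation day as a block and on the second day alone, and lay between 0 and 1 when each array was left out, the 1 being without retinoic acid replicate 1. Its adjusted p over the 18 other settings ran from 0.0183 to 0.199. Among the tested members signs turned, without a call, when single arrays were left out for Msx1 1448601_s_at (-0.12 to 0.00090), Msx2 1438351_at (-0.020 to 0.092) and Gsx2 (-0.020 to 0.079). Among the untested ones they did so for Zic4 1456417_at (-0.063 to 0.16), Zic4 1421539_at (-0.12 to 0.16) and Zic5 1425666_at (-0.17 to 0.054). Of the 20 list genes called, the 9 outside the marker lists became 7 to 9 over the other settings and the 11 in the marker lists 7 (without an intensity trend) to 14. The 0 pairs of unequal probe sets were 0 under each scaling and added constant too, while with an array left out no pair could pass. No paired analysis was possible because the titles number the arrays 1 to 8 across both groups, which share no replicate number. The dimness of the 8 Zic probe sets limits what their values can show.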
